A study of Homo sapiens with 4 samples.

Results

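The mitochondrially encoded genes are the genes carried by the small circular genome inside mitochondria, and they were taken here as every row of the expression table whose symbol starts with MT-. The rule found 37 of the 58365 rows. They were 13 protein-coding genes, 2 ribosomal RNA (rRNA) genes and 22 transfer RNA (tRNA) genes, all placed on chrM, and the class of each row was read from GENCODE release 29. The rule uses no measured value.

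RNA was sequenced from H1 cells, an established human embryonic stem cell line, at day 2 of differentiation towards blood. All 4 samples grew in a custom mTeSR1 medium with activin A and BMP4, growth factors that start mesoderm formation. The DMSO group (2 samples) had no inhibitor, and the IWP2 group (2 samples) received IWP2, a small molecule that blocks Porcupine, the enzyme that Wnt ligands need before they can be secreted. The labels give no dose of IWP2 and do not say whether replicates came from separate cultures, so the p-values measure only the spread between these samples, which may be technical. Values are FPKM (fragments per kilobase of transcript, scaled to the fragments sequenced in each sample), and in bulk RNA fewer cells of a type and less RNA per cell cannot be told apart.

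As background, human mitochondrial DNA is transcribed from both strands into long RNAs that are cut into single messages, mostly at the tRNAs that lie between them. All of its messages code for subunits of the respiratory chain or of ATP synthase: 7 for complex I, MT-CYB for complex III, MT-CO1, MT-CO2 and MT-CO3 for complex IV, and MT-ATP6 and MT-ATP8 for complex V. The rRNAs and tRNAs serve the ribosome inside mitochondria that makes those proteins. MT-ND6 is the only message read from the other strand, and it carries little or no poly(A) tail, whereas the other messages are polyadenylated. MT-ATP8 and MT-ATP6 share a single RNA, and so do MT-ND4L and MT-ND4. The TruSeq kit named in the labels selects polyadenylated RNA and does not mark strand, so reads from MT-ND6 and from RNA of the opposite strand cannot be told apart.

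Sequence of 3 members is shown because length and overlap bear on the values that follow. All are from GENCODE release 29 transcripts on GRCh38. MT-ATP8 (chrM:8366-8572, + strand) is the shortest message, with 207 nt, and the capitals mark its 46 last bases, which MT-ATP6 (chrM:8527-9207) also holds. MTATP8P1 (chr1:633535-633741, + strand) is a nuclear copy of MT-ATP8, and the capitals mark the 5 bases at which it differs. MT-TF (chrM:577-647, + strand, the tRNA for phenylalanine) and MT-TS2 (chrM:12207-12265, + strand, a serine tRNA and the shortest member) stand for the tRNAs.
MT-ATP8: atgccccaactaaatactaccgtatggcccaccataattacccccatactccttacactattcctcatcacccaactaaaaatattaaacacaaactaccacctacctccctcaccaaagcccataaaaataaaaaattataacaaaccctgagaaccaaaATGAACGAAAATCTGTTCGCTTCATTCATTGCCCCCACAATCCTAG
MTATP8P1: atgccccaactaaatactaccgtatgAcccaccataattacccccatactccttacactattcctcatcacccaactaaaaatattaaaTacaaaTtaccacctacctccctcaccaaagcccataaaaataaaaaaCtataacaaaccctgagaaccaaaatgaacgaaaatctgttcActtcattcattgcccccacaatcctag
MT-TF: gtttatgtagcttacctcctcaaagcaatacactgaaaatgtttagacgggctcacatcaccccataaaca
MT-TS2: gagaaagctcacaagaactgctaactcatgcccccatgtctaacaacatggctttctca

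The table holds no read counts, but low FPKM values of rows with a single annotated transcript moved in even steps. Between 91.5% and 92.8% of the values worth 0.5 to 10 fragments lay within 0.05 of a whole number of fragments. These steps gave an estimate of 20586467 to 25279695 fragments per sample. The estimated mean fragment length was 258 nt in DMSO replicate 1 and 279 nt in DMSO replicate 2. It was 258 nt in IWP2 replicate 1 and 271 nt in IWP2 replicate 2. Each length was chosen to make the share near whole numbers largest, so that share is no separate check of the estimate. It left out 491 to 538 rows per sample that were worth less than 0.5 fragments. Over the whole table, 15.2% of the 14022 rows tested passed an adjusted p of 0.05 in limma, a linear model fitted across all genes on log2(FPKM + 1), with 946 rows (6.75%) higher and 1183 (8.44%) lower with IWP2. The treatment was visible in the markers of cell identity. All 5 Wnt target genes were lower with IWP2, their summed FPKM being 136 to 152 with DMSO and 7.82 to 8.77 with IWP2. All 10 primitive streak and mesoderm markers were lower (summed FPKM 1187 to 1511 against 189 to 208), as were 3 of 4 endoderm markers (1891 to 2290 against 122 to 132). Of the 6 pluripotency markers, 4 were higher (969 to 1167 against 2387 to 2396), of the 5 extraembryonic markers 3 were higher and 1 lower (62.3 to 63.0 against 76.8 to 82.7), and the 3 neuroectoderm markers were too low to be tested (0.694 to 1.61 against 0.0725 to 0.506), with SOX1 at 0 in the replicate 1 sample of each group. The part of this change in cell identity in the mitochondrial values was not tested.

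None of the mitochondrial genes was called between IWP2 and DMSO. In limma, 0 of the 13 protein-coding genes and 0 of the 2 rRNA genes passed an adjusted p of 0.05, where 15.2% of all tested rows did (6.75% higher and 8.44% lower). Of these 15, 0 had an unadjusted p under 0.05, against 30.3% of all tested rows. The log2 fold changes of the 15 genes ran from -0.01 to 0.25, and 44.4% of all tested rows moved by more than that in either direction. The 22 tRNA genes were listed at 0 in all 4 samples and gave no comparison. The median log2 fold change of the 13 protein-coding genes was 0.16, beside -0.02 over all tested rows, and 12 of the 13 estimates lay above 0. The genes share their libraries and come from long shared RNAs, so these are not 13 separate observations. In 6 of the 13 (MT-ND2, MT-ND3, MT-ND4, MT-CO2, MT-CO3 and MT-ATP6) both IWP2 samples were above both DMSO samples, which was also so for 27.9% of all tested rows, and in 0 of the 13 were both below, against 31.9% of all tested rows.

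**Figure D1:**
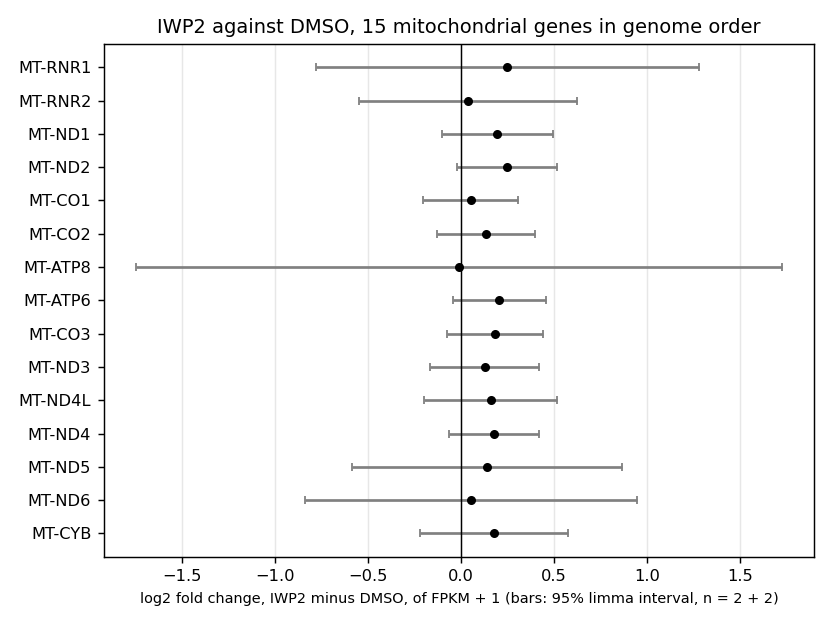
Log2 fold change of FPKM + 1 (IWP2 minus DMSO, x axis) for the 15 mitochondrial genes listed above 0, in genome order from top to bottom; points are limma estimates and bars their 95% intervals, from 2 samples per group. All 15 intervals include 0, the narrowest being those of MT-ND4, MT-ATP6, MT-CO1 and MT-CO3 and the widest that of MT-ATP8, from -1.75 to 1.73.

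The complex I genes code for membrane subunits of NADH dehydrogenase, where electrons enter the chain. MT-ND2 (chrM:4470-5511) had the lowest adjusted p of the members. Its FPKM was 982 and 1086 with DMSO and 1153 and 1301 with IWP2, so the groups did not overlap. The log2 fold change was 0.25 ± 0.11 (SE), with a 95% interval of -0.02 to 0.51 and a limma adjusted p of 0.196. MT-ND1 (chrM:3307-4262) was at 916 and 1024 with DMSO and at 1023 and 1204 with IWP2, so its groups touched, with a log2 fold change of 0.20 ± 0.12 (SE, adjusted p 0.334). MT-ND4 (chrM:10760-12137) was at 1030.05 and 1131 with DMSO and at 1179 and 1268 with IWP2, without overlap. Its log2 fold change was 0.18 ± 0.10 (SE, adjusted p 0.283).

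The short complex I messages gave no call either. MT-ND3 (346 nt, chrM:10059-10404) was at 4508 and 4569 with DMSO and at 4607 and 5353 with IWP2, where the lower IWP2 sample was only just above the DMSO samples (log2 fold change 0.13 ± 0.12, SE). MT-ND4L (297 nt, chrM:10470-10766) was at 4351 and 3595 with DMSO and at 4751 and 4112 with IWP2. Here replicate 1 was the higher sample in both groups and the groups overlapped (log2 fold change 0.16 ± 0.14, SE).

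MT-ND5 (chrM:12337-14148) and MT-ND6 (chrM:14149-14673, - strand), neighbours on opposite strands, were listed far lower. MT-ND5 had 20.02 and 33.8 FPKM with DMSO and 24.0 and 34.5 with IWP2. MT-ND6 had 43.4 and 78.8 with DMSO and 47.1 and 78.3 with IWP2. In both genes replicate 2 was the higher sample in each group, and the difference between replicates exceeded that between groups. The log2 fold changes were 0.14 ± 0.29 and 0.05 ± 0.35 (SE), and the interval of MT-ND6, from -0.84 to 0.95, spans differences in either direction.

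MT-CYB (chrM:14747-15887), the cytochrome b of complex III, had 45.8 and 53.1 FPKM with DMSO and 48.8 and 64.1 with IWP2. The groups overlapped, and the log2 fold change was 0.18 ± 0.16 (SE, adjusted p 0.505).

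The complex IV genes code for the core of cytochrome c oxidase, which passes electrons to oxygen. MT-CO1 (chrM:5904-7445), which holds the catalytic centre, had the smallest log2 fold change among the messages above 1000 FPKM other than MT-ATP8. Its FPKM was 4843 and 5056 with DMSO (4949.5 ± 150.2, SD, n = 2) and 4979.95 and 5286 with IWP2 (5133 ± 216, SD, n = 2), so the groups overlapped. The log2 fold change was 0.05 ± 0.10 (SE), and its interval of -0.20 to 0.31 runs from 0.869-fold to 1.24-fold on the scale of FPKM + 1. MT-CO2 (chrM:7586-8269) was at 4889 and 4841 with DMSO and at 5091 and 5604 with IWP2 (0.13 ± 0.10, SE, adjusted p 0.446). MT-CO3 (chrM:9207-9990) was at 3839.96 and 3975 with DMSO and at 4253 and 4628 with IWP2 (0.18 ± 0.10, SE, adjusted p 0.295). In MT-CO2 and MT-CO3 both IWP2 samples were above both DMSO samples, but neither gene passed the test.

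The complex V genes, carried by a single RNA, differed in the spread of their samples. No test compared them, and MT-ATP8 is the shorter, with 207 nt. MT-ATP6, the membrane channel subunit of ATP synthase, was at 3683 and 3739.9 FPKM with DMSO and at 4113 and 4460.4 with IWP2. Its samples were close within groups (SD 40.4 and 246) and the groups did not overlap, with a log2 fold change of 0.21 ± 0.10 (SE, adjusted p 0.238). MT-ATP8, a small subunit beside it, was at 33374 and 9279 with DMSO and at 26236 and 11660.2 with IWP2. The DMSO samples alone differed 3.6-fold and the IWP2 samples 2.25-fold, replicate 1 being the higher in each, and the groups overlapped. Its log2 fold change was -0.01 ± 0.68 (SE), with an interval from 0.298-fold to 3.31-fold on the scale of FPKM + 1.

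The rRNA genes were low in these libraries. MT-RNR2 (chrM:1671-3229), the large-subunit rRNA, had 32.8 and 50.5 FPKM with DMSO and 36.9 and 47.4 with IWP2. MT-RNR1 (chrM:648-1601), the small-subunit rRNA, had 6.57 and 13.2 with DMSO and 8.01 and 15.8 with IWP2. Replicate 2 was the higher sample in each group for both, the groups overlapped, and the log2 fold changes were 0.04 ± 0.23 and 0.25 ± 0.41 (SE).

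**Figure D2:**
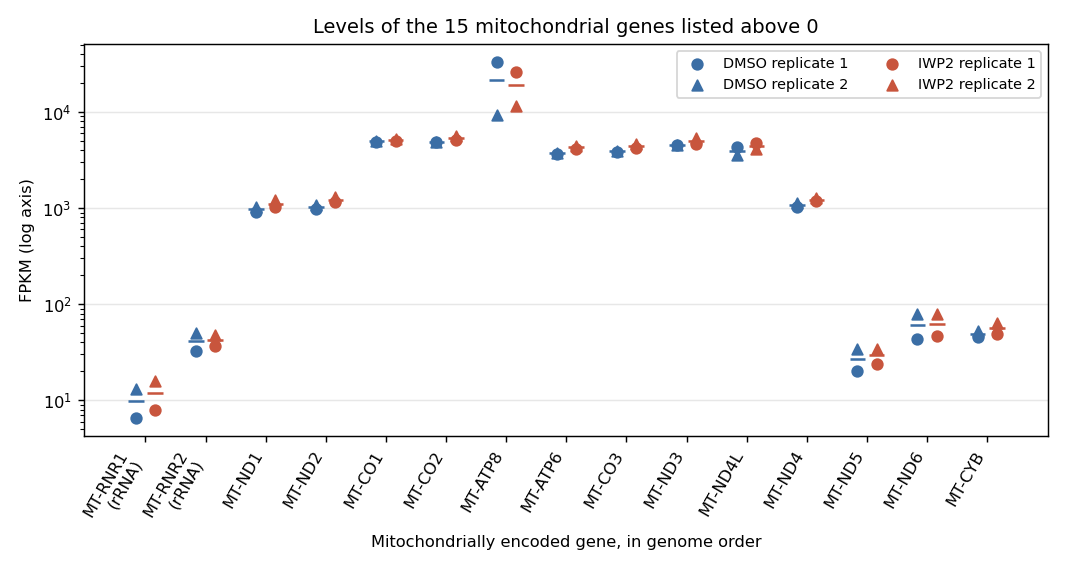
FPKM (log axis) of the 15 mitochondrial genes listed above 0, in genome order along the x axis; circles are replicate 1, triangles replicate 2, and short lines the group means (2 samples each). The genes fall into a low set (both rRNAs, MT-ND5, MT-ND6 and MT-CYB), a middle set near 1000 (MT-ND1, MT-ND2, MT-ND4) and a high set from 3595 upwards, with MT-ATP8 above all and its replicates furthest apart among the messages of the high set.

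Read along the genome, the listed FPKM formed steps. With DMSO, the mean FPKM was 9.87 for MT-RNR1 and 41.6 for MT-RNR2, then 970.04 for MT-ND1 and 1034 for MT-ND2. From MT-CO1 to MT-ND4L it lay between 3711 and 4949.5, leaving out MT-ATP8. It was 1081 for MT-ND4 and then dropped to 26.9 for MT-ND5, 61.1 for MT-ND6 and 49.5 for MT-CYB. MT-ND4L (297 nt) shares a single RNA with MT-ND4, so the step between them cannot be read as a step in RNA level. MT-ND3 (346 nt) is short as well, and the part of length in these values was not tested. In that order of levels the sample ranges of MT-CO1 and MT-CO2 overlapped, as did those of neighbours among MT-ND4, MT-ND2 and MT-ND1. Within every sample, however, MT-ND2 was above MT-ND1 and MT-CYB above MT-RNR2. The order of MT-ND4 and MT-ND2 varied between samples, as did that of MT-CO1 and MT-CO2. The DMSO samples of MT-ND4L spanned those of MT-CO3 and MT-ATP6, and in the low set those of MT-ND6, MT-CYB and MT-RNR2 overlapped, while no sample of the middle set came near the high or the low set. The level of MT-ND4 over that of MT-CYB was 22.5 and 21.3 with DMSO and 24.2 and 19.8 with IWP2, so the ranges of the groups overlapped.

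The 2 pairs of genes that share an RNA did not have equal levels. MT-ATP8 over MT-ATP6 was 9.06 and 2.48 with DMSO and 6.38 and 2.61 with IWP2. MT-ND4L over MT-ND4 was 4.22 and 3.18 with DMSO and 4.03 and 3.24 with IWP2. In both pairs the shorter gene had the higher FPKM in every sample, and the ratio was larger in replicate 1 of each group. MT-ATP8 (207 nt) is shorter than the mean fragment of every library, and FPKM from a tool such as RSEM divides by an effective length, the number of positions at which a fragment could start. The estimated mean fragment length was shorter where these ratios were larger. It was 258 nt in both replicate 1 samples and 271 to 279 nt in the others. However, the ratio of MT-ATP8 to MT-ATP6 also differed between the samples with 258 nt. The part of fragment length in the result was not tested.

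**Figure D3:**
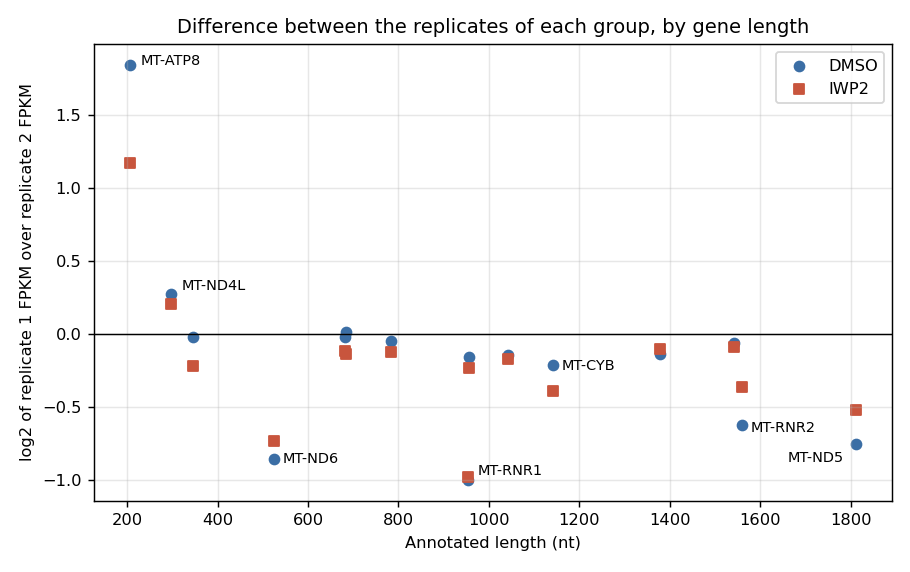
Log2 ratio of replicate 1 to replicate 2 FPKM (y axis) against annotated gene length in nt (x axis) for the 15 mitochondrial genes listed above 0; circles are the DMSO samples and squares the IWP2 samples. MT-ATP8 stands at 1.85 and 1.17, MT-ND4L at 0.28 and 0.21, and the genes of low FPKM below 0, down to -1.002 and -0.98 for MT-RNR1.

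The difference between replicates had the same sign in both groups for 14 of the 15 genes, the exception being MT-CO2 (0.01 with DMSO and -0.14 with IWP2). Across these 15 genes the replicate differences of the groups correlated at r = 0.978, against 0.152 over all 14022 tested rows. This is given as a description, since the genes share their libraries. The largest differences, in log2, were those of MT-ATP8 (1.85 with DMSO and 1.17 with IWP2) and MT-RNR1 (-1.002 and -0.98). How far such genes set r was not tested. Replicate 2 exceeded replicate 1 by 2.00-fold with DMSO and 1.98-fold with IWP2 for MT-RNR1. It did so by 1.82-fold and 1.66-fold for MT-ND6 and by 1.69-fold and 1.44-fold for MT-ND5. Among the high messages of at least 500 nt (MT-CO1, MT-CO2, MT-CO3 and MT-ATP6) the replicates differed far less, by at most 1.04-fold with DMSO and 1.10-fold with IWP2. The estimated fragments behind these values were 105 to 237 for MT-RNR1, 266 to 436 for MT-ND6 and 714 to 1165 for MT-ND5. MT-CO1 had 131453 to 161645, MT-CYB 928 to 1220 and MT-RNR2 978 to 1338. For MT-CYB replicate 2 exceeded replicate 1 by 1.16-fold with DMSO and 1.31-fold with IWP2. For MT-RNR2 it did so by 1.54-fold and 1.29-fold. The part of depth in these differences was not tested.

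Short genes were unsteady in the table as a whole. Between the DMSO samples the median absolute log2 difference was 1.36 for tested rows of 140 to 299 nt, 0.62 for 300 to 499 nt, 0.24 for 500 to 999 nt and 0.15 for 1000 nt and over. Of the rows of 140 to 299 nt, 71.4% were at 0 in some sample. The classes were not matched for level, and the members did not all follow them. Between the DMSO samples the log2 ratio of replicate 1 to replicate 2 was 1.85 for MT-ATP8 (207 nt). It was 0.28 for MT-ND4L (297 nt), -0.02 for MT-ND3 (346 nt) and -0.76 for MT-ND5 (1812 nt). All 22 tRNA genes, of 59 to 75 nt, belong to the 6357 rows whose longest annotated transcript is under 140 nt, and 0 of those rows was above 0 in any sample. The zeros of the tRNA genes therefore set no limit on tRNA expression.

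The mitochondrial genes took a large part of the summed FPKM, and most of its spread came from MT-ATP8. All 37 genes made up 9.57% and 6.25% of the sum with DMSO and 8.95% and 6.92% with IWP2, with group means of 7.91% ± 2.35 and 7.94% ± 1.43 (SD, n = 2). MT-ATP8 alone gave 5.1% and 1.51% with DMSO and 4.08% and 1.79% with IWP2. Without it, the other 12 protein-coding genes stood at 4.46% and 4.73% with DMSO and at 4.86% and 5.12% with IWP2. The total behind these shares still held MT-ATP8, so its spread also enters them. The groups then no longer overlapped, but 2 samples against 2 cannot give an exact two-sided permutation p below 0.333. Counted in estimated fragments, the 12 members of at least 500 nt held 1.46% and 1.48% of the fragments with DMSO and 1.56% and 1.67% with IWP2.

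Of the summed FPKM of the 10 protein-coding genes of at least 500 nt, MT-CO1 took 23.9% and 24.1% with DMSO and 22.7% and 22.1% with IWP2. MT-CO2 took 24.1% and 23.0% against 23.2% and 23.4%, and MT-CO3 took 18.9% in both DMSO samples against 19.4% and 19.3%. MT-ATP6 took 18.1% and 17.8% against 18.8% and 18.6%. MT-ND2 took 4.84% and 5.17% against 5.26% and 5.44%. The share of MT-CO1 was thus lower, and those of MT-CO3, MT-ATP6 and MT-ND2 higher, in both IWP2 samples, by at most 2 percentage points. The shares of the other genes overlapped between the groups. Shares of a single sum are not independent, since a fall in any share raises the sum of the others. No test was made, and 2 samples against 2 cannot give an exact two-sided permutation p below 0.333.

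The nuclear genome holds copies of mitochondrial genes that can take up their reads. The table had 405 rows named as such copies, of which 67 were above 0 in some sample and 14 were tested. The highest was MTATP6P1 (chr1:633696-634376), identical to MT-ATP6 at 671 of 681 bases. It was at 197 and 149.8 FPKM with DMSO and at 224 and 203 with IWP2, which is 4.004% to 5.46% of MT-ATP6. MTCO1P12 (chr1:631074-632616), identical to MT-CO1 at 1522 of 1542 bases, was at 45.4 and 41.3 against 43.3 and 44.2. MTCO2P12 was at 4.73 and 11.7 with DMSO and at 3.45 and 16.01 with IWP2, and MTCO2P2, of 225 nt, at 0 and 77.8 against 14.97 and 49.9, so their replicates differed more than their groups. How reads were shared between such copies and the mitochondrial genes is not given in the sources used here, and the values of both are uncertain to that extent. Set against the low members, the summed copies came to 0.52% to 1.37% of MT-CYB, 2.87% to 4.78% of MT-ND5, 1.14% to 4.12% of MT-ND6 and 3.91% to 8.55% of MT-RNR2.

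Few of the nuclear genes that serve the mitochondrial genome were called. Of 166 tested genes for mitochondrial transcription, replication, RNA processing, translation, tRNA charging and ribosomes, 4 were higher and 1 lower with IWP2 (adjusted p under 0.05), which is 3.01% against 15.2% of all rows. The genes of transcription (10 tested), replication and the nucleoid (17), RNA processing (30) and translation factors (16) had no call in limma. TFAM, which packages mitochondrial DNA and starts its transcription, was at 37.6 and 38.1 FPKM with DMSO and at 42.7 and 38.2 with IWP2 (log2 fold change 0.09 ± 0.09, SE). SLIRP, which stabilises mitochondrial messages together with LRPPRC, was at 322 and 405 with DMSO and at 307 and 363 with IWP2 (-0.11 ± 0.15, SE).

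The calls fell on the ribosome and on a tRNA synthetase. Among 78 mitochondrial ribosomal protein genes, MRPS9 was higher with IWP2, with 25.7 and 27.4 FPKM against 40.3 and 41.8 (log2 fold change 0.61 ± 0.09, SE, adjusted p 0.012). MRPL34 (0.51 ± 0.09) and MRPL11 (0.40 ± 0.08) were higher too, and MRPL53 (-0.38 ± 0.08) was lower. The list's median was 0.02. LARS2, which charges the mitochondrial leucine tRNAs, had 11.6 and 12.5 FPKM with DMSO and 17.2 and 16.8 with IWP2 (0.46 ± 0.10, SE, adjusted p 0.0366), alone among 17 synthetases. Without any 1 of the 4 samples, 0 to 2 higher and 0 to 1 lower calls were left over all the nuclear mitochondrial lists together.

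Nuclear subunits of the same respiratory complexes gave 3 calls among 73 tested genes, which is 4.11% against 15.2% of all tested rows. ATP5G1, a gene for the c subunit of ATP synthase, was at 94.1 and 93.5 FPKM with DMSO and at 140.1 and 145 with IWP2 (log2 fold change 0.60 ± 0.08, SE, adjusted p 0.00836). COX7C of complex IV was at 488 and 424 against 609 and 703 (0.52 ± 0.12, SE, adjusted p 0.042). NDUFA6 of complex I was lower, at 91.0 and 88.9 against 63.6 and 68.1 (-0.45 ± 0.08, SE, adjusted p 0.0246). The medians by complex were 0.02 for complex I (37 genes), 0.08 for complex III (9), 0.09 for complex IV (11) and 0.09 for complex V (16), beside 0.16 for the mitochondrial messages. Neither the 10 tested biogenesis regulators (median -0.01) nor the 17 genes chosen as markers of mitochondrial mass (median -0.08) held a call in limma.

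**Figure D4:**
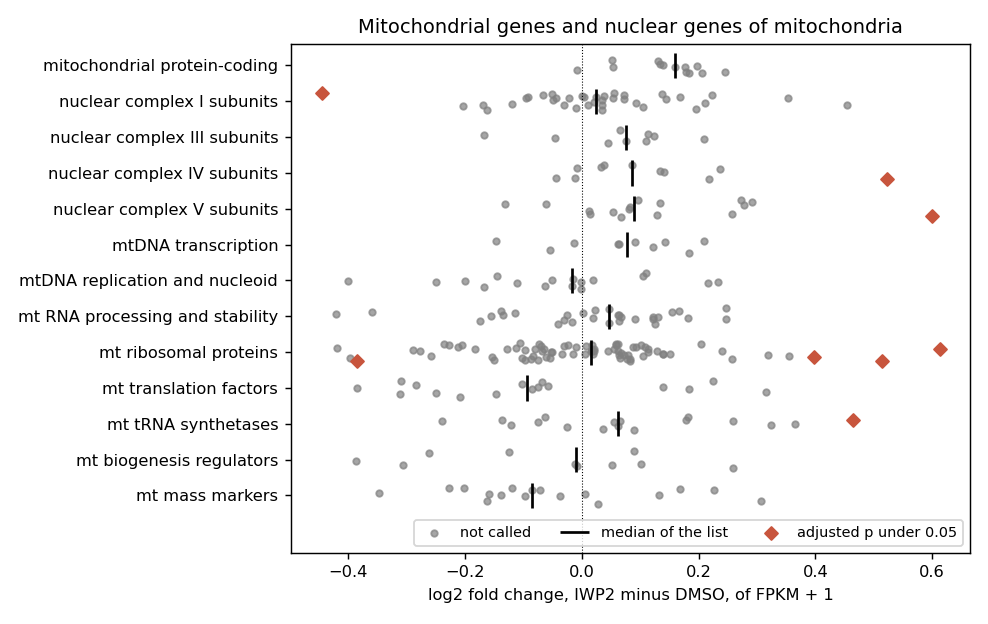
Log2 fold change of FPKM + 1 (IWP2 minus DMSO, x axis) for the 13 mitochondrial messages and for 12 lists of nuclear genes of mitochondria; each point is a gene, diamonds passed an adjusted p of 0.05 in limma, vertical lines are list medians, and vertical scatter within a list only separates points. No mitochondrial message was called, and 6 nuclear genes were higher and 2 lower with IWP2.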

How the data were processed

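Total RNA of 4 samples (2 DMSO, 2 IWP2) was made into libraries with a TruSeq kit. The deposited table gives FPKM per gene and sample. The labels name RSEM, Bowtie and BWA, without versions or roles, and the build hg19. However, 97.0% of the rows carry GENCODE release 29 coordinates on GRCh38, with starts counted from 0, all 37 members included, so GRCh38 was used and 1 was added to each start. The table heads its columns -IWP2 and +IWP2 with a number. The + columns match the IWP2 samples. The - columns were read as the DMSO group, and a DMSO replicate number is that of its column, since the header does not name the sample. Nothing was rescaled.

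Rows with a mean of at least 1 FPKM over the 4 samples were tested on log2(FPKM + 1), a scale that understates changes of low genes, with limma 3.58.1 (trend, two-sided) in R 4.3.3, IWP2 against DMSO, with Benjamini-Hochberg adjustment over all rows. The fit was tested on simulated data. Depth was estimated from steps of the low values of rows of at least 400 nt, and intervals cover 95%. Nuclear copies were aligned with Biopython 1.88. Every member was named, with the tRNAs at 0 as a group. From each nuclear list at most 3 called genes per direction were eligible, or the 2 most abundant if none was called, and at most 4 nuclear copies. TFAM and SLIRP stand for their lists. The rule for the members uses symbols only, but these genes and the nuclear lists were picked for study with earlier results of these data known. Alternatives were another pseudocount, no filter, 3 scalings, no trend, a replicate block and leaving out each sample.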

Additional observations from a re-analysis of the deposited data

Results flagged for a closer look

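The nuclear copies MTATP8P2 and MTATP8P1 of the MT-ATP8 gene lie outside the comparisons of the members, were above the control level and were not among the 4 copies named by the rule. MTATP8P2 (202 nt) was listed at 0 in both DMSO samples and at 12.4 and 12.98 FPKM with IWP2, a mean of 12.7. MTATP8P1 (207 nt) was listed at 0 in both DMSO samples and at 9.96 and 10.9 with IWP2, a mean of 10.4. Both passed the filter on low values only through the IWP2 samples, so no test is given for them. They are shorter than the mean fragment of every library and are identical to MT-ATP8 at 190 of 202 and 202 of 207 aligned bases. Among tested rows of 140 to 299 nt, 71.4% were at 0 in some sample. MT-ATP8 itself had no call, and the part of read sharing in these values was not tested.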

How the results depend on the processing

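No mitochondrial gene was called by limma under any of the 11 alternatives run for each of the 15 tested members, and the lowest adjusted p was 0.126, for MT-ND2 with a replicate block. The estimates kept their direction in 153 of 165 comparisons, and those that turned with a sample left out did so without DMSO replicate 1 or IWP2 replicate 2 (MT-CYB only without the latter). Leaving out 1 sample gave log2 fold changes from -0.20 to 0.70 for MT-RNR1, -0.27 to 0.34 for MT-RNR2, -0.93 to 0.91 for MT-ATP8, -0.22 to 0.50 for MT-ND5, -0.37 to 0.48 for MT-ND6 and -0.016 to 0.37 for MT-CYB, and median-of-ratios scaling gave 0.011 for MT-ATP8. The median of the 13 messages ran from 0.08 to 0.24 without 1 sample. Leaving MT-ATP8 out of the members only was an alternative chosen after seeing the data. The total still held it, and the share of the summed FPKM was then 4.6% with DMSO and 4.99% with IWP2. Without 1 sample it was 6.24% to 9.56% for DMSO and 6.91% to 8.94% for IWP2 over 13 genes, and 0.00602% to 0.0103% and 0.00699% to 0.00971% for the rRNAs.

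Over all rows, 118 higher and 263 lower calls were left without the filter, and 58 to 657 higher and 180 to 718 lower without 1 sample, the fewest without IWP2 replicate 1 (90 and 204) or IWP2 replicate 2 (58 and 180). The 6 higher and 2 lower calls in the nuclear lists became 1 and 0 without the filter, 3 and 0 without trend, and 0 to 2 and 0 to 1 without 1 sample. Rescaling every sample to one total, with or without the mitochondrial rows, gave 4 lower calls. With the replicate block 1 lower call was left, and the block changed no other count by over 1.5 times. Same-numbered samples share only a number, and that of a DMSO sample is its column's. Deviations of same-numbered samples correlated at 0.152 over all tested rows and 0.978 over the 15 members, where MT-ATP8 and MT-RNR1 deviated most. With the block 1 member, MT-ND2, had an unadjusted p under 0.05. The cause was not tested for these shifts. Among the 12 members of at least 500 nt, MT-RNR1 and MT-ND6 had the fewest estimated fragments; whether depth limits them was not tested.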

Other observations

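MT-CYB was one of the low set of members, with MT-ND5, MT-ND6 and both rRNAs. MT-CO1 over MT-CYB was 106 and 95.2 with DMSO and 102 and 82.5 with IWP2, and the estimated fragments were 928 to 1220 for MT-CYB against 25598 to 33373 for MT-ND4. MT-ND5, of 1812 nt and the longest message, was lower still, and MT-ND6 over MT-ND5 was 2.17 and 2.33 with DMSO and 1.96 and 2.27 with IWP2. These 3 genes are the last of the messages in genome order, and their low level was present in all 4 samples.

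Several nuclear copies shared the direction of the replicate difference seen in the low mitochondrial genes. MTCO3P12 was at 2.86 and 13.6 FPKM with DMSO and at 3.69 and 12.1 with IWP2, and MTRNR2L12 at 1.21 and 3.78 against 1.501 and 3.58, replicate 2 being the higher in each group. MTATP6P1 had the opposite order, with replicate 1 the higher in both groups. These copies were chosen after their values were seen.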
